A study of Mus musculus with 4 samples.

Results

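The 38 genes described here carry out the uptake, activation, mitochondrial oxidation and droplet storage of fatty acids in the cell. They were chosen by function from a list that left out the transporter gene Cd36, and all 38 were found among 21896 protein-coding gene models of the mouse. ATF4 is a transcription factor made in response to cellular stress. Its genomic occupancy was profiled in ventricle from mouse hearts at 4 weeks of age by BioChIP, where sheared, crosslinked chromatin is captured on streptavidin beads and sequenced. There were 2 ATF4 pull-down samples, with titles that read ATF4-bio1 and ATF4-bio2, and 2 input samples of the same tissue and age without pull-down, whose values are not analysed here. The antibody field of the pull-down samples reads AAV and that of the input samples reads none. The labels give no genotype, strain or vector, and they do not say whether the captured ATF4 was the heart's own or whether the samples came from separate animals. The SDs below cover the spread of this pair of samples alone, and that spread may be technical.

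The heart takes most of its energy from long-chain fatty acids. Lipases and binding proteins deliver them, acyl-CoA synthetases activate them, the carnitine shuttle carries them into mitochondria, and each turn of the beta oxidation spiral shortens the chain and passes electrons through electron transfer flavoprotein to the respiratory chain. Surplus fatty acid is held as triglyceride in lipid droplets coated by perilipins. Many of these genes are known as targets of the nuclear receptors PPAR alpha and ERR alpha in heart, while ATF4 is best known for genes of amino acid supply.

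The series-wide peak list held 41639 peaks, and the lists of replicates 1 and 2 held 78746 and 88812. Each series-wide peak carries the authors' fold enrichment, which spanned 7.5 to 79 over a background that was the same for all peaks of a sample. It is therefore not a ratio to input, and a peak does not by itself show binding. The series-wide fold is the higher of both samples, so the fold of each sample is given for named peaks of the 38 genes. Depth is unknown, since the lists hold no read counts. Among marker genes, gene ends (1 kb on either side) overlapped a series-wide peak at 6 of 6 cardiomyocyte genes (highest folds 9.75 to 62.0). They did so at 3 of 3 smooth muscle and pericyte genes and 3 of 3 hepatocyte genes (19.1 to 22.6). Counts were 1 of 4 endothelial, 1 of 4 fibroblast, 1 of 3 immune and 0 of 4 adipocyte genes, against 34.9% of all protein-coding genes. In the gene body with 10 kb on each side, these 4 groups had a peak at 3 of 4, 2 of 4, 2 of 3 and 2 of 4 genes. The share of all genes there was 61.1%. Pecam1, Kdr, Pdgfra and Adipoq, without a series-wide gene end peak, had one in both replicate lists (45.2% of all genes). The hepatocyte range is that of replicate 2, and all 3 hepatocyte genes had a lower fold in replicate 1. In replicates 1 and 2, Apoa1 had 10.5 and 19.9 and Ttr had 15.5 and 22.6. Cardiomyocyte genes went both ways, with 62.0 and 60.3 at Tnnt2 and 20.5 and 24.4 at Myl2. The part of other cell types in the peaks below, or in their differences between replicates, was not tested.

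Peaks lay at most genes of the pathway. A series-wide peak overlapped the 1 kb on either side of a gene end at 30 of the 38 genes (78.9%), against 34.9% of all protein-coding genes. Within the gene body with 10 kb on each side, 36 of 38 had a peak (94.7%), against 61.1% of all protein-coding genes. Acsl3 and Acads had none in that window. In the replicate lists a gene end peak was present at 33 of 38 genes in replicate 1 (86.8%, against 48.2% of all genes) and at 35 in replicate 2 (92.1%, against 50.2%), and 33 genes had one in both lists (86.8%, against 45.2%). Acsl5, Eci2 and Lipe had one in neither list (7.89%, against 46.8%). In the gene body with 10 kb, 37 genes had a peak in replicate 1 (97.4%, against 72.3%), 38 in replicate 2 (100%, against 74.1%) and 37 in both lists (97.4%, against 70.1%). With 1 group of samples and no analysed input, no test over samples could be made, and these shares are descriptions.

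The share was set beside that of genes in the same range of lengths and of genes in the same CpG class of start. Gene models of the list had a median length of 20950 bp and spanned 4275 to 104441 bp. Among all genes within that range of lengths, 40.0% had a gene end peak and 65.8% had one in the wider window. The range is wide and holds 15117 of the 21896 genes, so lengths were not matched closely. Among genes with a CpG-rich start (observed over expected CpG of at least 0.6), 14 of 17 genes of the list had a gene end peak (82.4%), against 54.5% of all such genes. Among genes whose start was not CpG-rich, 10 of 14 had one (71.4%), against 16.0% of all such genes. The remaining 7 genes of the list had no start in the RefSeq table that was used.

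**Figure D1:**
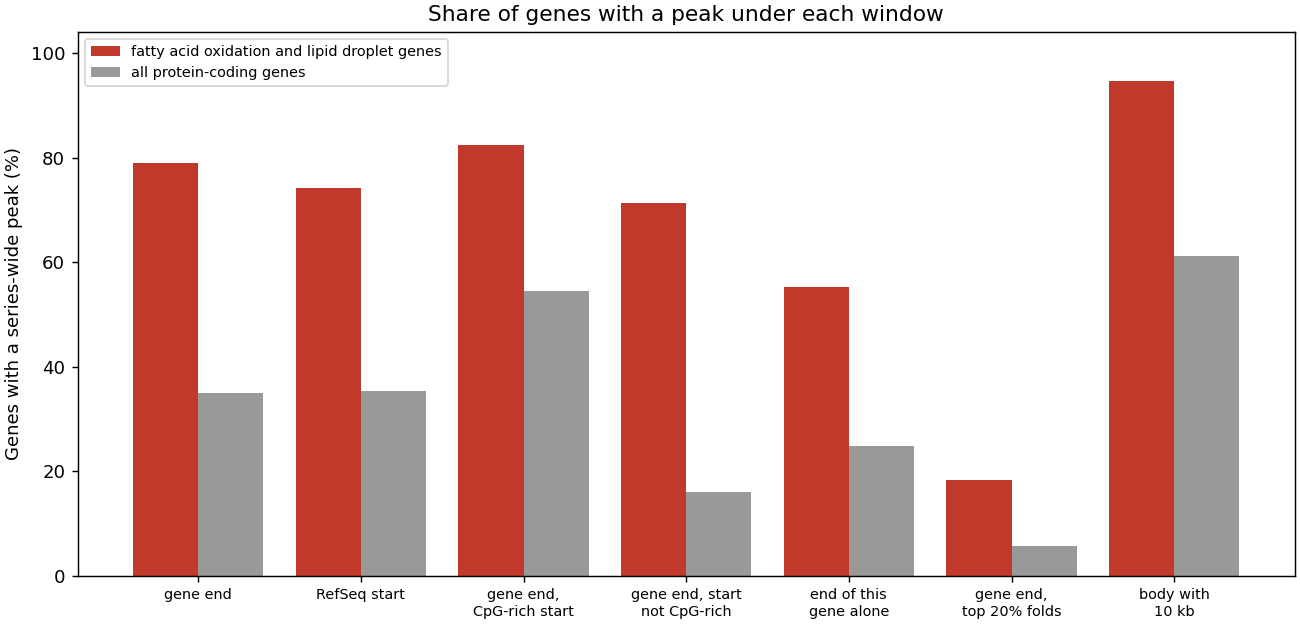
Share of genes with a series-wide peak (%, vertical axis) under 7 windows or filters, for the fatty acid oxidation and lipid droplet genes (red) and for all protein-coding genes (grey). The red bar stands above the grey one in each pair, from 94.7% against 61.1% for the gene body with 10 kb to 18.4% against 5.66% for gene ends when only the 20% of peaks with the highest fold are used.

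Strength at gene ends was close to that of other genes with a peak. The highest series-wide fold at a gene end had a median of 14.0 over the 30 genes, against 13.3 over all 7641 genes with such a peak, and it spanned 8.0 to 39.9. In the wider window the median of the highest fold was 21.7 over 36 genes, against 17.0 over all genes with a peak there. The highest of several peaks rises with their number, and the list had a median of 3 peaks per gene against 1. These medians were not adjusted for that number. Peaks of the top 20% by fold (21.5 and above) lay at an end of 7 genes of the list (18.4%, against 5.66% of all genes). In the wider window they lay at 18 (47.4%, against 21.0%). Both shares are over genes with or without a peak. Among genes with a gene end peak the counts were 7 of 30, against 1240 of 7641 genes overall. Among genes with a peak in the wider window they were 18 of 36, against 4600 of 13372 genes overall.

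The windows held 120 distinct series-wide peaks, of which 35 lay at an end of a gene of the list, 49 inside it and 36 outside it. Each replicate list alone held more, 218 in replicate 1 and 213 in replicate 2. All 120 overlapped a peak in both replicate lists, as did 97.6% of all series-wide peaks. The median number of peaks per gene was 3, against 1 for all genes and 1 for all genes in the same range of lengths, and 9 genes had at least 5 peaks (23.7%, against 9.02% of all genes). The peaks were 556 bp wide at the median, against 441 bp for all series-wide peaks, and 20 of them exceeded 1000 bp (16.7%, against 8.10%). The fold was higher in replicate 1 at 59 of the 120 peaks (49.2%, against 45.4% of all series-wide peaks found in both lists) and higher in replicate 2 at 61.

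**Figure D2:**
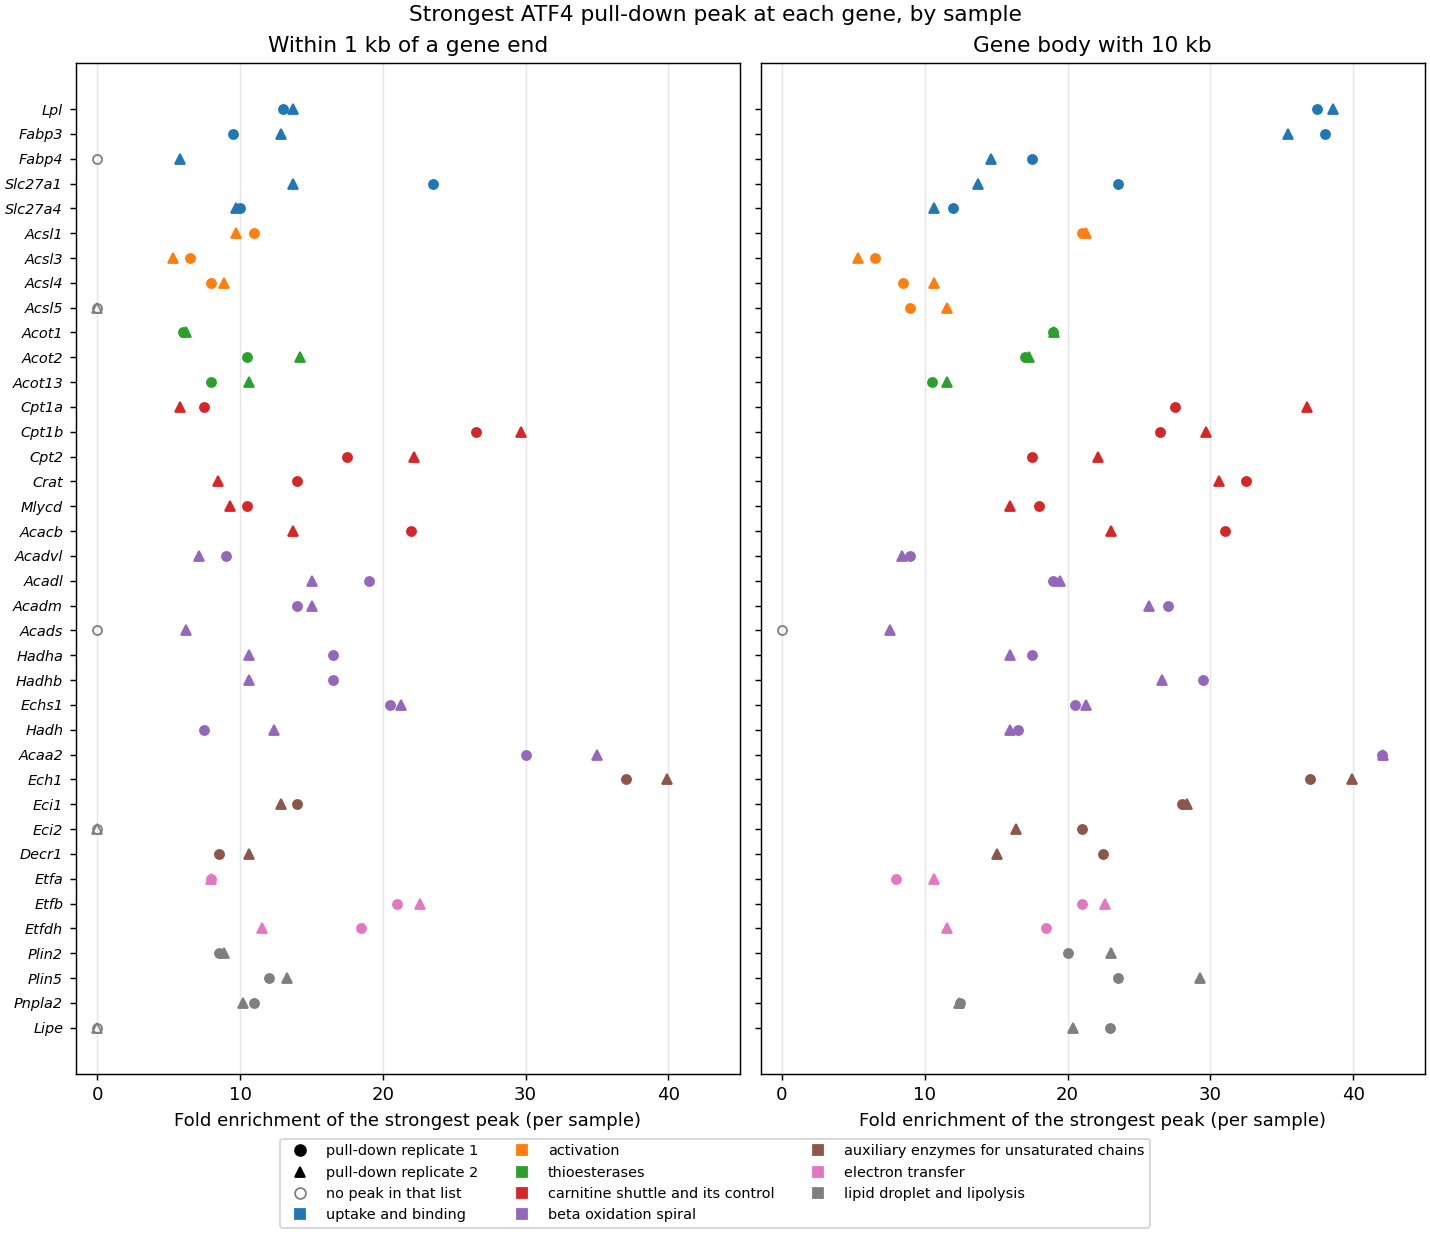
Fold enrichment of the strongest peak (horizontal axis) at each of the 38 genes, within 1 kb of a gene end (left) and in the gene body with 10 kb (right), coloured by role. Circles are pull-down replicate 1, triangles replicate 2, and open grey symbols at 0 mark a list with no peak there. Ech1 stands highest at gene ends with 37.0 and 39.9, Acaa2 stands highest in the wider window with 42.0 and 42.1, and Acads has no peak in replicate 1 in either panel.

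The strongest peak was more often inside the gene model than at an end of it. Among the 36 genes with a peak, the strongest lay inside the gene model, more than 1 kb from its ends, in 18. Of all genes with a peak, 34.2% had their strongest there. It lay at an end in 9 (25.0%, against 32.6%) and outside the gene in 9 (25.0%, against 33.2%). The 18 included Eci2 and Lipe, whose summits lay 199 and 25 bp before a RefSeq start inside the gene model. How often this held among all genes was not counted. The strongest Fabp4 peak, also among the 18, ended only just short of the 1 kb beside a gene end. Of the 31 genes with a RefSeq start, 23 had one in the series-wide list within 1 kb of such a start (74.2%, against 35.4% of all genes with one). The 8 without one were Slc27a4, Acsl3, Acsl5, Acot1, Cpt1a, Acacb, Acads and Plin5. Where the nearest summit lay within 1 kb of a start, it lay a median of 212 bp away in 22 genes of the list, against 105 bp in 5968 genes overall.

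**Figure D3:**
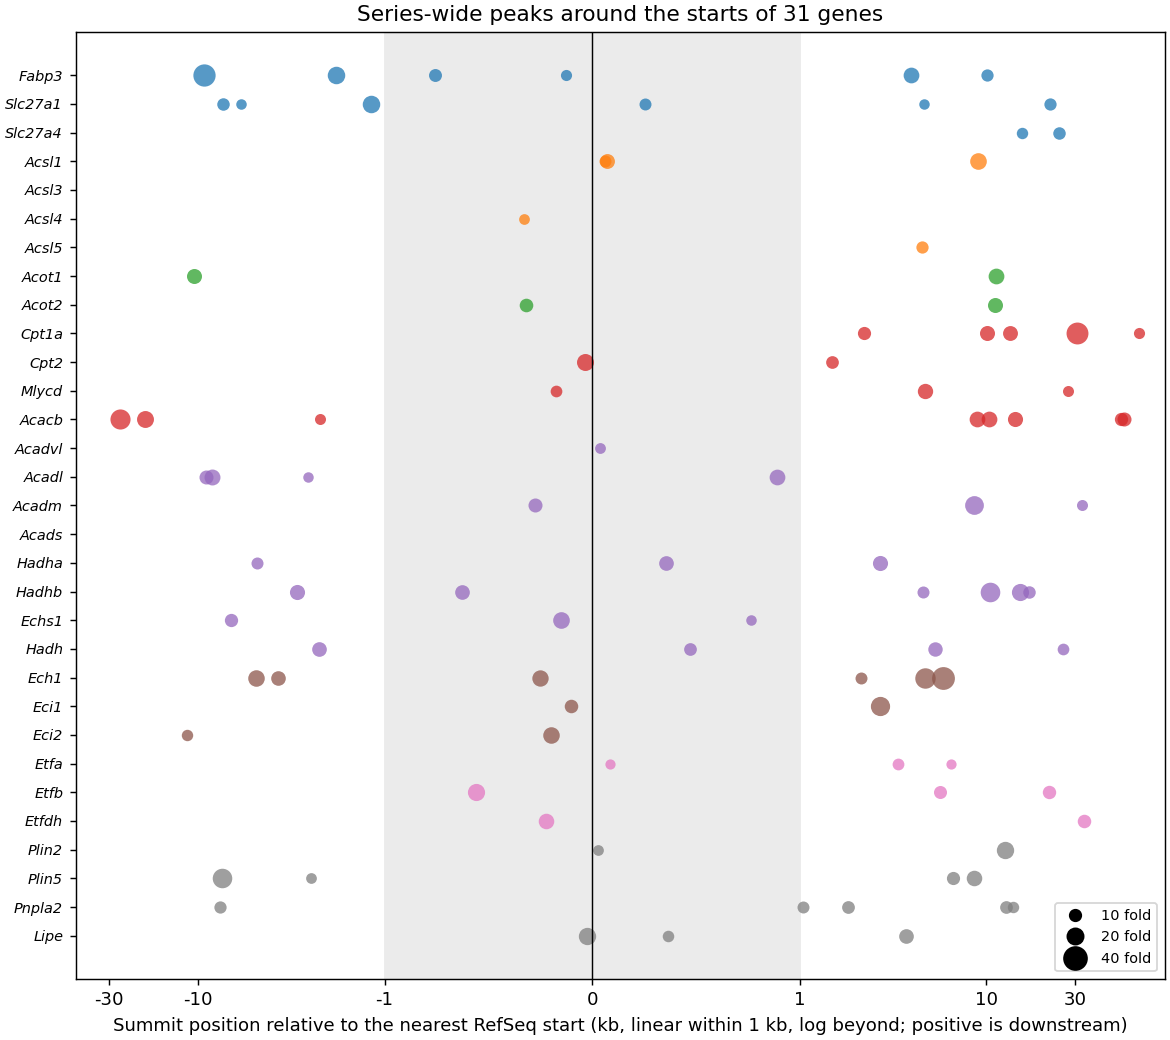
Summits of series-wide peaks relative to the nearest RefSeq start of 31 genes (horizontal axis, kb, linear within 1 kb and log beyond, positive downstream), with circle area in proportion to the fold and colour by role as in the plot of folds by sample. The grey band covers 1 kb on either side of the start. It holds summits of 22 genes, while the large circles of Fabp3, Cpt1a, Hadhb, Ech1 and Plin5 lie outside it.

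The sequence before the start was searched for the letters of known factor sites in 36 RefSeq windows of the 31 genes (250 bases before to 50 after a start, GRCm38.p6, both strands). The composite element of ATF4 and C/EBP factors, searched as TGATGNAA, was in 2 of the 36 windows, at Fabp3 and Echs1, and in 3.60% of all 21262 windows of protein-coding genes. The 5 stretches below are shown because they hold these letters (Fabp3 and Echs1), belong to the gene with the highest gene end fold (Ech1), hold the letters of an ERR-type site beside a summit (Acadm), or lie before a start inside the gene model (Eci2). Each gives the 250 bases before the start, 5′ to 3′ on the strand of the gene. Capitals mark matches to TGATGNAA, to TGACG, to AAGGTCA and, in Eci2, to CCAAT, on either strand. The stretches are chr4:130308488-130308737 on the plus strand, chr7:140116422-140116671 on the minus strand, chr7:28825088-28825337 on the plus strand, chr3:153944644-153944893 on the minus strand and chr13:34994145-34994394 on the minus strand, in the order printed.
Fabp3: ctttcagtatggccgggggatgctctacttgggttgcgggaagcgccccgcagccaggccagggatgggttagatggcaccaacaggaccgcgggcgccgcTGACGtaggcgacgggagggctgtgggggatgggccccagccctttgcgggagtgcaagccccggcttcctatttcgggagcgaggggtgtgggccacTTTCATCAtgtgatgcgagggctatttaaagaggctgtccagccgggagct
Echs1: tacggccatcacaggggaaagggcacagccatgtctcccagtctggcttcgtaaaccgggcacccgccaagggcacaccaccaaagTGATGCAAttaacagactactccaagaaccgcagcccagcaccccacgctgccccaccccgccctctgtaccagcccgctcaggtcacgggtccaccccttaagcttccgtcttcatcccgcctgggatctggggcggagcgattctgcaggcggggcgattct
Ech1: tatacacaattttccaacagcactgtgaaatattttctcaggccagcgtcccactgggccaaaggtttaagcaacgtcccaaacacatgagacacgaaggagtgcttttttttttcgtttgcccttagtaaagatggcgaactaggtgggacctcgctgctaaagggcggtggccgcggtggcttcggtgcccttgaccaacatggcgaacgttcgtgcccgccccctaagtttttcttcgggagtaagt
Acadm: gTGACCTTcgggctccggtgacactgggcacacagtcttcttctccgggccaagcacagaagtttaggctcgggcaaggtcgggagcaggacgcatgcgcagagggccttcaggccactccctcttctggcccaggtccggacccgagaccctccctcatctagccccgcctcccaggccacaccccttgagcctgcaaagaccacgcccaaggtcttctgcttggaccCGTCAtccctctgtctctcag
Eci2: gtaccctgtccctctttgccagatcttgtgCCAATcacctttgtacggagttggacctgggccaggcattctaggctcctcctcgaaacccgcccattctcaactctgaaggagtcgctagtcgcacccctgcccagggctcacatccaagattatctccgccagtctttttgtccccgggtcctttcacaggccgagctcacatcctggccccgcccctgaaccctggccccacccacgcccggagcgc

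At Echs1 the match TGATGCAA began 164 bases before the start, and the summit of the series-wide peak lay 10 bp from its centre. At Fabp3 the match TTTCATCA, which reads TGATGNAA on the other strand, began 51 bases before the start, and the nearest summit lay 77 bp away. A TGACG match in the same stretch of Fabp3 lay 22 bp from that summit. The ERR-type match TGACCTT of Acadm, which is AAGGTCA on the other strand, lay at the far edge of the printed stretch, 28 bp from the summit. The Acadm stretch was picked for printing with that nearness known. At Acacb, which holds the other AAGGTCA match, no series-wide peak lay within 1 kb of the RefSeq start. Of the other letters searched, TGACG was in 6 of the 36 windows (23.6% of all windows), AAGGTCA in 2 (4.08%), the AP-1 site TGANTCA in 2 (6.99%), the E-box CACGTG in 3 (7.84%), CCAAT in 17 (38.2%) and the GC box GGGCGG in 25 (46.2%). The cyclic AMP response element TGACGTCA, which holds TGACG, was in 0 (2.23%), the MEF2-type box in 0 (3.47%) and the PPAR element (DR1), which can overlap AAGGTCA, in 0 (0.047%). A series-wide peak overlapped 30.7% of all windows, 19.8% of those with TGATGNAA and 57.3% of those with TGACGTCA. A match of letters is not a site of binding, and no match says only that these letters are not in this window.

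Among the genes of uptake and binding, 4 of 5 had a gene end peak, and the strongest peak lay away from the ends in all but Slc27a1. Lpl, which encodes the lipoprotein lipase that frees fatty acids from circulating triglyceride, had 9 series-wide peaks, the most of the list. Its strongest lay inside the gene (chr8:68902578-68903786), with a fold of 37.5 in replicate 1 and 38.6 in replicate 2 (38 ± 0.751, SD, n = 2). The peak over the lower end of its gene model had 13.0 and 13.7. A further Lpl peak inside the gene had 29.0 and 27.9, and one 1.92 kb beyond it had 23.0 and 25.7. Fabp3, which encodes the fatty acid-binding protein of heart muscle, had 6 peaks. The strongest had 38 and 35.5 (36.7 ± 1.80, SD, n = 2) and lay 9.24 kb before the start (chr4:130298681-130299766). The Fabp3 peak nearest the start, whose stretch is printed above, had 9.5 and 8.42.

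Slc27a1, which encodes a fatty acid transport protein, had its strongest peak 1.18 kb before its nearest start, with 23.5 in replicate 1 and 13.7 in replicate 2 (18.6 ± 6.90, SD, n = 2). This peak also lay within 1 kb of an end of Nxnl1. A broad Slc27a1 peak of 2249 bp over the starts had 11 and 10.6. Slc27a4, of the same family, had its gene end peak beyond the far end of the gene, with 10 and 9.75, and no series-wide peak at its start, where replicate 1 alone held a weak peak of 7.5. Fabp4, the binding protein of adipocytes and endothelium, had no series-wide peak at an end. Its single series-wide peak lay inside the gene, with 17.5 and 14.6. In replicate 2 alone there were peaks at the ends of Fabp4, of 5.32 to 5.76 fold, which is near the lowest fold of that list (5.32).

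The acyl-CoA synthetases had 5 distinct series-wide peaks over 4 genes, and 2 of 4 had one at an end. The median of the highest fold there was 9.93 over these 2 genes. Acsl1, the main long-chain synthetase of heart, had 3. Peaks of 11 and 9.75 and of 17.0 and 13.7 lay 60 bp and 70 bp downstream of its RefSeq starts, and the strongest lay 8.97 kb inside the gene with 21.0 and 21.3. Acsl4, which favours polyunsaturated fatty acids, had 8.0 and 8.87 at its start. Acsl5 had no gene end peak in any list and a single series-wide peak, inside the gene, of 9.0 and 11.5. Replicate 2 alone held a further peak of 7.09 inside Acsl5. Acsl3, which acts at the endoplasmic reticulum and at lipid droplets, had no series-wide peak in the window. Both replicate lists held a weak peak at its start, of 6.50 in replicate 1 and 5.32 in replicate 2, below the lowest series-wide fold of 7.5.

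The thioesterase genes, whose products release free fatty acid from acyl-CoA, had a gene end peak in 2 of 3 cases. Acot2, of the mitochondrial enzyme, had 10.5 and 14.2 (12.3 ± 2.60, SD, n = 2), with the summit 317 bp before the start. Acot13 had 8.0 and 10.6 at an end that it shares with Tdp2. Acot1, of the cytosolic enzyme, had no series-wide peak at an end, while weak peaks of 6.0 and 6.21 overlapped each other there in the replicate lists. A peak between Acot2 and Acot1 (chr12:83998846-83999583), counted for both, had 17.0 and 17.3, and one 3.07 kb beyond Acot1 had 19.0 and 19.1. Acot1 and Acot2 are close paralogs, and peaks in near-identical sequence are uncertain where reads could map to either copy.

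In the carnitine shuttle and its control, 5 of 6 genes had a gene end peak. Their highest series-wide folds there spanned 10.5 to 29.7, with a median of 22.0. Since this fold is the higher of both samples and each role holds few genes, the roles were not ranked. Cpt1b, the muscle form of the outer membrane carnitine palmitoyltransferase, had 2 gene end peaks. One of 26.5 and 29.7 (28.1 ± 2.26, SD, n = 2) had its summit 0.968 kb outside the lower end of the gene model (chr15:89415232-89415637), and one of 15.5 and 21.7 lay at the end that it shares with Chkb. Cpt1a, the form best known from liver, had no series-wide peak at an end. Its 4 intragenic peaks included one 30.4 kb downstream of the start (chr19:3353274-3354347), with 27.5 in replicate 1 and 36.8 in replicate 2 (32.1 ± 6.57, SD, n = 2). At the start of Cpt1a the lists of replicates 1 and 2 held overlapping peaks of 7.5 and 5.76, and replicate 1 alone held a peak of 10 fold just downstream. The peak 30.4 kb inside the gene was picked as the strongest of the window, so its fold above those near the start follows in part from that choice.

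Cpt2, of the inner membrane enzyme, had its peak over the start, with the summit 32 bp before it and folds of 17.5 and 22.2 (19.8 ± 3.30, SD, n = 2). Crat, which transfers acetyl groups to carnitine, had its strongest peak inside the gene (chr2:30409451-30409845), with 32.5 and 30.6 (31.5 ± 1.36, SD, n = 2). At the end that Crat shares with Ptpa the fold was 14.0 and 8.42. Acacb makes malonyl-CoA, the inhibitor of the outer membrane enzyme, and Mlycd encodes the decarboxylase that removes it. Acacb had 8 peaks. The strongest, with 31 and 23.0, lay 6.96 kb outside Acacb at an end of Ung, and the one at its own model end had 22.0 and 13.7 (17.9 ± 5.84, SD, n = 2). Mlycd had 10.5 and 9.31 at its start and 18.0 and 16.0 inside the gene.

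The enzymes of the beta oxidation spiral had a gene end peak in 8 of 9 cases. Acaa2, the thiolase of the last step, stood highest, with 30 and 35.0 at an end (32.5 ± 3.55, SD, n = 2) and 42.0 and 42.1 in a peak 4.72 kb outside the gene (42.1 ± 0.0762, SD, n = 2). Its gene end peak was 2582 bp wide, the widest of the list. Echs1, the short-chain enoyl-CoA hydratase, had 20.5 and 21.3 (20.9 ± 0.548, SD, n = 2) at the start whose sequence is printed above. That peak also lay within 1 kb of an end of Paox. Hadha and Hadhb encode the subunits of the mitochondrial trifunctional protein and lie head to head, so a single peak with 16.5 in replicate 1 and 10.6 in replicate 2 counted for both. The strongest Hadhb peak lay 10.4 kb inside the gene, with 29.5 and 26.6 (28.0 ± 2.05, SD, n = 2).

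The acyl-CoA dehydrogenases, which open each turn for chains of different length, differed among themselves. Acadl (long chains) had 19.0 and 15.1 at an end, and Acadm (medium chains) had 14.0 and 15.1. The strongest Acadm peak lay 8.56 kb inside the gene, with 27.0 and 25.7 (26.4 ± 0.914, SD, n = 2). Acadvl (very long chains) had 9.0 and 7.09 over its start, its single series-wide peak. Acads (short chains) had no series-wide peak in the window and no peak in replicate 1, and its peaks in replicate 2 had at most 7.54 fold. The folds of Acadl and Acadm at an end lay above those of Acadvl in both samples, while those of Acadl and Acadm overlapped. Hadh, the short-chain hydroxyacyl-CoA dehydrogenase, had 7.5 and 12.4 at its start and a peak of 16.5 and 14.6 lying 2.24 kb before it.

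Of the auxiliary enzymes that prepare unsaturated chains for the spiral, 3 of 4 had a gene end peak. Ech1, a dienoyl-CoA isomerase, had the highest gene end fold of the list, 37.0 in replicate 1 and 39.9 in replicate 2 (38.4 ± 2.04, SD, n = 2; chr7:28830717-28832255). That peak lay at the far end of Ech1, 5.88 kb downstream of the start and within 1 kb of an end of Lgals4. The peak at the start of Ech1 had 20.5 and 15.1, and another inside the gene had 32.0 and 29.7. Eci1, an enoyl-CoA isomerase, had 14.0 and 12.9 at the end that it shares with Rnps1 and 28.0 and 28.4 in a peak 2.70 kb inside the gene (28.2 ± 0.260, SD, n = 2). Decr1, the dienoyl-CoA reductase, had 8.50 and 10.6 at an end and 22.5 and 15.1 inside the gene. Eci2 had no peak at an end of its gene model in any list. The model runs far upstream of the RefSeq start, and a peak with its summit 199 bp before that start had 21.0 and 16.4 (18.7 ± 3.25, SD, n = 2).

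All 3 electron transfer genes had a gene end peak. Etfb, of the beta subunit of electron transfer flavoprotein, had 21.0 and 22.6 (21.8 ± 1.14, SD, n = 2) in a peak that it shares with an end of Cldnd2. Etfdh, which hands the electrons to ubiquinone, had 18.5 and 11.5, in a peak also at an end of 4930579G24Rik. Etfa, of the alpha subunit, had 8.0 and 7.98 at its start, and its strongest peak, 3.36 kb inside the gene, had 7.5 and 10.6. The gene end folds of Etfa lay below those of both partners in each sample.

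Among the lipid droplet and lipolysis genes 3 of 4 had a gene end peak, and the strongest peak of each lay away from the ends of its gene model. Plin2, a droplet coat protein found in most tissues, had 8.50 and 8.87 over its start and 20.0 and 23.0 in a peak 12.6 kb inside the gene. Plin5, the coat protein of oxidative tissues, had 12 and 13.3 beyond its far end, next to an end of Plin4, and no series-wide peak at its start. At the start of Plin5 the lists of replicates 1 and 2 held overlapping weak peaks of 7.5 and 7.09. Its strongest peak, 23.5 and 29.3 (26.4 ± 4.07, SD, n = 2), lay 7.37 kb outside the gene with its summit inside Sema6b. Pnpla2, the lipase that opens triglyceride breakdown, had 11 and 10.2 at an end and 12.5 and 8.42 inside the gene. Lipe, the hormone-sensitive lipase, had no peak at an end of its gene model in any list. Both RefSeq starts of Lipe lie inside the model and carried a peak: 23.0 and 20.4 with the summit 25 bp before one start (21.7 ± 1.85, SD, n = 2), and 10 and 10.2 with the summit 365 bp after the other. If RefSeq starts were added to the gene ends, Eci2 and Lipe would also count as having a peak. The share of all genes under that choice was not computed, so no count is set beside it. That choice was made after the data were seen.

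**Figure D4:**
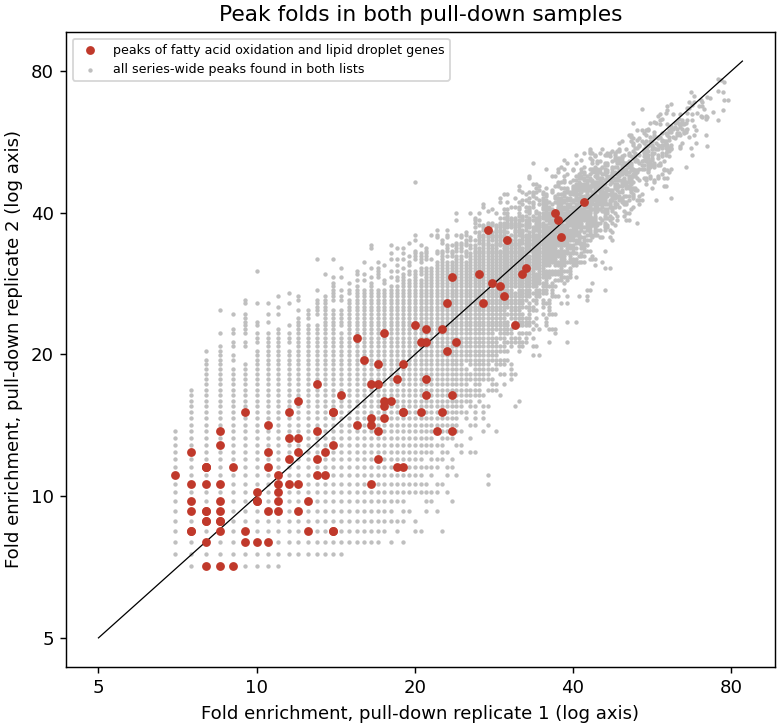
Fold enrichment in pull-down replicate 1 (horizontal, log axis) and replicate 2 (vertical, log axis) for the 120 peaks of the fatty acid oxidation and lipid droplet genes (red) and for all series-wide peaks found in both lists (grey), with the line of equality. The red points lie on both sides of the line, 59 higher in replicate 1 and 61 higher in replicate 2, and reach from 7.0 to 42.1 fold.

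Several gene end peaks cannot be given to a single gene. At 9 of the 30 genes with a gene end peak (Acot13, Crat, Hadha, Hadhb, Echs1, Eci1, Etfb, Etfdh and Plin5) each such peak also lay within 1 kb of an end of another protein-coding gene. A peak at an end of that gene alone was present at 21 of 38 genes (55.3%, against 24.8% of all genes). Hadha and Hadhb share theirs with each other.

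A wider list of 60 further genes of fatty acid metabolism, which adds peroxisomal oxidation, triglyceride synthesis and further droplet proteins, was described in the same way. A series-wide gene end peak was present at 32 of the 60 (53.3%, against 34.9% of all genes) and a peak in the wider window at 51 (85%, against 61.1%). The median highest fold at an end was 13.0. The strongest at an end were Acss1, a mitochondrial acetyl-CoA synthetase, with 27.0 and 31.9, Plin3, a droplet coat protein, with 28.0 and 28.4, and Fitm2, of droplet formation, with 27.0 and 19.1. Acot7, a further thioesterase, had 24.5 and 22.6, and G0s2, an inhibitor of the lipase encoded by Pnpla2, had 18.5 and 22.2. The wider window held no series-wide peak for 9 of the 60. Among genes named after their values were seen, Slc25a20, the carnitine-acylcarnitine carrier of the inner membrane, had no series-wide peak in the window, while the windows of Plin3 and Lpin1 reached 68.7 and 58.5.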

How the data were processed

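Per the submitters' processing notes, Bowtie2, MACS2 and deepTools were used with the build mm10; their settings and versions are not given in the sources used here. For each pull-down sample the authors deposited a peak list holding summits and −log10 values, either a p-value or a q-value. The series-wide list gives the authors' deposited fold enrichment and a summit offset. Its name says IDR, a method that keeps peaks reproduced between replicates. Replicate starts are written 1 base higher than the series-wide ones, and all coordinates here are 1-based.

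Replicate folds were read from peaks identical in position and summit to a series-wide peak (17420 and 21053), which tie each −log10 value to a fold in steps of 0.500 and 0.443. At 6 levels of replicate 2 some peaks carried the other sample's fold, and the commonest was used. The lowest 4 and 5 levels, matched by no series-wide peak, continued the steps downwards, and 2 and 9 other levels were interpolated. Folds were not scaled between samples, and 0 value columns were left unmapped.

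Genes and starts come from RefSeq tables of GRCm38.p6, the assembly of mm10. An overlap of at least 1 bp counted. No set test was run. The backgrounds by gene length and CpG content, the added RefSeq starts and the count of peaks at no other gene end were chosen after seeing the data. Genes, lists, motifs and the naming rule were chosen with earlier results of these data known. The rule names, per role, up to 3 genes with the highest fold in the wider window, genes without a gene end peak and the 3 with most peaks; the text also describes the other genes. Scripts were tested on simulated data. Python 3.11.15, NumPy 2.4.6, pandas 2.3.3 and Matplotlib 3.10.9 were used.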

Additional observations from a re-analysis of the deposited data

How the results depend on the processing

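Windows of 500 bp and 5 kb, peak midpoints, RefSeq starts alone, peaks in both replicate lists only and each replicate alone moved the count of genes with a gene end peak by less than 1.5 times, for the 38 genes and for the 60 further genes. The strength filter moved it more. With the 50% of peaks of highest fold, 17 of the 38 genes had a gene end peak (16.7% of all genes) and 15 of the 60; with the 20% of highest fold, 7 and 5 did (5.66% of all genes). In the gene body with 10 kb the stricter filter left 18 of the 38. The number of distinct peaks was 79 in gene bodies alone, 65 with the 50% and 27 with the 20% of highest fold, and 213 to 218 in single replicate lists, which hold more peaks in all. The median highest fold at a gene end was 17.5 with a window of 5 kb. In single replicates it was 10.6 to 12, over 33 to 35 genes in place of 30. The series-wide fold is the higher of both samples, and its lowest value is 7.5, against 5.50 and 5.32 in the lists of replicates 1 and 2. The part of each in the lower median was not tested. No paired analysis was possible because the values of the input samples are not analysed here. Depth is unknown, so weak peaks such as those of Acsl3 and Acads could not be told from absence at this depth.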
